A study of Homo sapiens with 83 samples.

Results

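The genes described here are 10 regulators of the G1 phase of the cell cycle: the D cyclins CCND1, CCND2 and CCND3, the E cyclins CCNE1 and CCNE2, the kinases CDK4 and CDK6, and the inhibitors CDKN1A (p21), CDKN1B (p27) and CDKN2C (p18). They were chosen by gene symbol, and all 10 were found among the 60237 genes of the expression table. Polyadenylated RNA had been sequenced from 83 libraries of SHEP and SKNAS, human neuroblastoma cell lines with constitutive N-MYC-ER, a fusion protein that enters the nucleus when 4-hydroxytamoxifen (4OHT) is added. MYC-ON cells received 4OHT for 24 h before entrainment and MYC-OFF cells received ethanol, while dexamethasone was given to all 4 groups. Circadian time (CT) counts the hours since dexamethasone, and cells were harvested every 4 h. SHEP MYC-OFF and SHEP MYC-ON each held 28 libraries from 2 series, both spanning CT24 to CT76. SKNAS MYC-OFF held 14 libraries from 1 series over the same times, and SKNAS MYC-ON held 13 from 1 series that ended at CT72. The fusion is overexpressed from a transgene in both conditions, so MYC-OFF is a state with inactive fusion protein and not one without it. According to the study, SHEP cells express no N-MYC of their own. The MYCN transcript, in which gene totals do not separate transgene from endogenous gene, was at 406 to 688 TPM in SHEP MYC-OFF and at 255 to 515 TPM in SHEP MYC-ON, lower in 28 of 28 pairs of libraries from the same series and CT. In SKNAS it spread from 29.1 to 987 TPM in MYC-OFF and from 13.1 to 1046 TPM in MYC-ON.

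A cell commits to division in G1. D cyclins bind CDK4 or CDK6, and these complexes begin to phosphorylate the retinoblastoma protein RB1, which otherwise holds back the E2F transcription factors. E cyclins then activate CDK2 and complete the step into S phase. CDKN2C belongs to the INK4 inhibitors, which bind CDK4 and CDK6, whereas CDKN1A and CDKN1B belong to the CIP/KIP family, which block cyclin-CDK2 complexes. MYC proteins drive proliferation in neuroblastoma, where MYCN amplification is a known event, and D cyclins, CDK4 and these inhibitors have long been studied as genes downstream of MYC.

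Levels are given as TPM, transcript abundances corrected for length whose total is the same in every library, so a rise of some genes is balanced by a fall of others. Changes were tested by limma on log2(TPM + 1) with the libraries of a time course standing in for replicates, and a gene was called when its Benjamini-Hochberg adjusted p over all genes tested was at most 0.05 and its change at least 0.15 on the log2 scale. The p-values measure the spread of libraries around the fit, from 1 or 2 experiments. The main level fits had CT as a factor, so time differences shared by the groups compared are not in that spread. In SHEP the median over genes of log2(TPM + 1) lay between 3.93 and 4.17 in every library. In SKNAS it ranged from 2.97 to 4.38 in MYC-OFF and from 2.76 to 4.25 in MYC-ON, and it reached 3.8 in 10 of 14 MYC-OFF but only 3 of 13 MYC-ON libraries. Over all genes tested, the median change with MYC-ON was -0.036 in SHEP and -0.29 in SKNAS, and in SKNAS it was 0.032 after the libraries were rescaled to a common median ratio. SKNAS values of the 10 genes are therefore also given after rescaling where the call differs. Single genes named from other lists are given in SKNAS without rescaling, and whether their calls hold after it is not shown. MYC, the close relative of MYCN, was at 7.42 to 17.7 TPM in SHEP without and 0.80 to 6.45 TPM with 4OHT, and in SKNAS at 4.12 to 23.1 TPM and 0.25 to 3.13 TPM, so that the conditions did not overlap in either line. Of 8 adrenergic neuroblastoma markers, 6 had a mean under 1 TPM in both SHEP groups and 3 in both SKNAS groups. The summed level of the 8 ranged from 28.5 to 44.2 TPM in SHEP MYC-OFF, from 37.9 to 55.8 TPM in SHEP MYC-ON, from 264 to 611 TPM in SKNAS MYC-OFF and from 82.8 to 261 TPM in SKNAS MYC-ON. Of 8 mesenchymal markers, 2 were called higher and 4 lower with MYC-ON in SHEP, where 33% and 38.9% of all genes tested were. In SKNAS, without rescaling, 1 was called higher and 3 lower, where 13.7% and 34.4% of all genes tested were. Of the 2 higher in SHEP, 1 passed the filter at a mean of 1 TPM only through its level in MYC-ON, so its call is not a test. Their sum ranged from 3992 to 5343 TPM and from 3309 to 4948 TPM in SHEP MYC-OFF and MYC-ON, and from 825 to 2233 TPM and 684 to 2712 TPM in SKNAS. The part of MYCN and of these markers in the results was not tested. In bulk RNA, fewer cells that express a gene and less of its RNA per cell cannot be told apart.

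In SHEP MYC-OFF the most abundant of these transcripts was CDKN1A, with a median of 676 TPM, followed by CDK4 (239 TPM), CCND1 (118 TPM), CCND3 (71.1 TPM) and CDK6 (49.8 TPM). The ranges of CDKN1A, CDK4 and CCND1 did not overlap with that of the next gene in order, whereas those of CCND3 and CDK6 overlapped. CDKN2C, CDKN1B and CCNE1 followed at medians of 19.2, 16.7 and 15.6 TPM with overlapping ranges, then CCNE2 at 4.98 TPM, and CCND2 was lowest at 0.054 TPM. SKNAS had another order: CDK4 led in MYC-OFF with a median of 416 TPM, and CDKN1A stood seventh at 26.97 TPM. The ranges of neighbours in the SKNAS MYC-OFF order overlapped at every step except CDKN2C over CDKN1B.

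**Figure D1:**
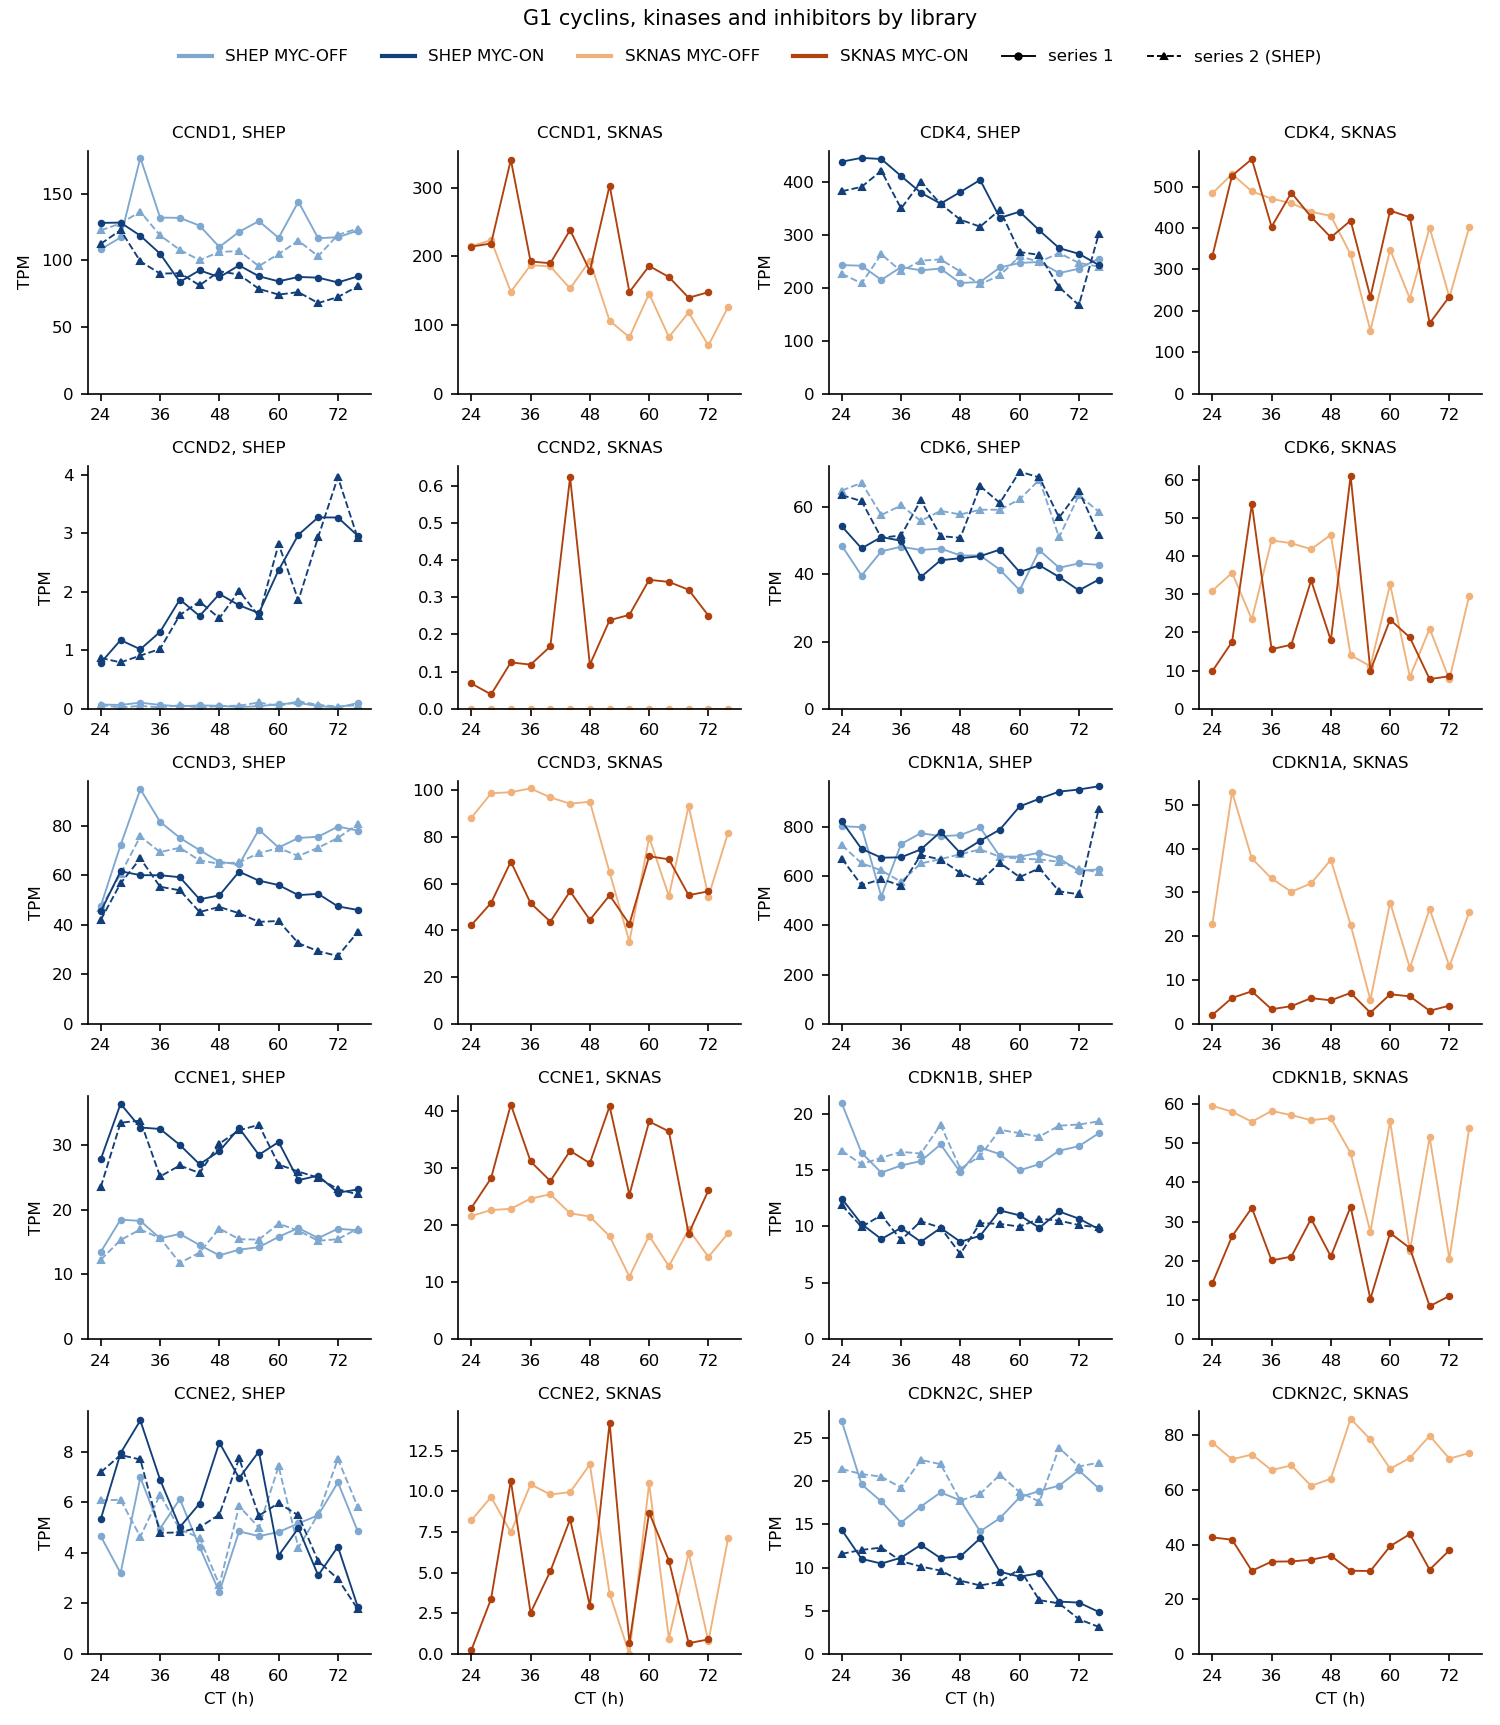
TPM of each gene (y axis, from 0) against circadian time in hours (x axis) for every library, with SHEP and SKNAS in separate panels, light colours for MYC-OFF and dark colours for MYC-ON, and solid and dashed lines for series 1 and 2. CCNE1 and CDKN1B are separated by condition in every SHEP library, CCND2 is higher late than early in both SHEP MYC-ON series, and CDKN1A is far lower in SKNAS than in SHEP.

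The first comparison asked how the level of each gene differed between MYC-ON and MYC-OFF. In SHEP, CCNE1 and CDK4 rose, CCND1, CCND3, CDKN1B and CDKN2C fell, and CCNE2, CDK6 and CDKN1A did not pass the test. That is 6 of 9 genes called, where 71.8% of all 14362 genes tested were called, so the share was near the background. CCND2 is left out of this count, since it passed the filter at a mean of 1 TPM only through its level in MYC-ON. In SKNAS, CCND1 and CCNE1 rose and CCND3, CDKN1A, CDKN1B and CDKN2C fell. These are 6 of the 9 genes that passed the filter, against 48.1% of all 13886 genes tested. CCND2 was under that filter in SKNAS. The difference of the MYC effect between the lines was tested on its own, and it was called for CCND1, CDK4, CDKN1A and CDKN1B, 4 of 9, where 51.5% of all genes tested were called.

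**Figure D2:**
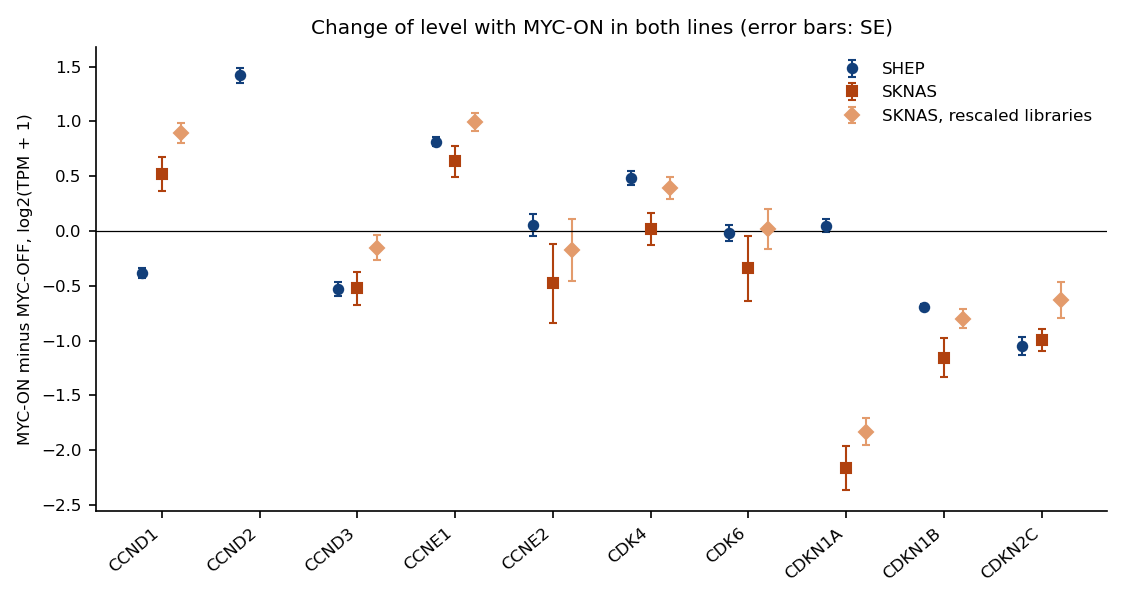
Change of each gene with MYC-ON (y axis, difference in log2(TPM + 1), with its SE as error bars) in SHEP, in SKNAS and in SKNAS after rescaling of the libraries. CCND1 has opposite signs in the lines, CDKN1A is near 0 in SHEP and at -2.16 in SKNAS, and CCNE1, CDKN1B and CDKN2C have the same sign in both.

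CCND1 (ENSG00000110092, chromosome 11, 69641156 to 69654474 on the plus strand of GRCh38) encodes cyclin D1. In SHEP its lowest, median and highest values were 95.8, 118 and 177 TPM in MYC-OFF and 67.997, 88.1 and 128 TPM in MYC-ON. The ranges overlapped, and MYC-ON was lower in 26 of 28 pairs of libraries from the same series and CT. The change was -0.38 ± 0.046 (SE, adjusted p = 5.1e-10). SKNAS went the other way, with 70.1, 147 and 223 TPM in MYC-OFF and 140, 190 and 341 TPM in MYC-ON, higher in 10 of 13 pairs. The change there was 0.52 ± 0.16 (adjusted p = 0.012), and 0.90 after rescaling. The effect in SKNAS minus that in SHEP was 0.91 ± 0.12 (adjusted p = 1.9e-09), and it lay between 0.91 and 1.19 under the 4 alternatives tried. Within SKNAS the call was lost in each part of the time course taken alone, with 0.25 (adjusted p = 0.23) for CT24 to CT48 and 0.84 (adjusted p = 0.066) for the later times. Of all genes tested, 65.7% were called in the earlier part and 8.63% in the later.

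CCND2 (ENSG00000118971, chromosome 12, 4269771 to 4305353, plus strand) encodes cyclin D2. In SHEP MYC-OFF it was barely present, with 0.020, 0.054 and 0.13 TPM as lowest, median and highest value. In SHEP MYC-ON these values were 0.79, 1.80 and 3.96 TPM, so that every MYC-ON library lay above every MYC-OFF library. The mean was 33.6 times that of MYC-OFF. The fitted change of 1.42 on the log2(TPM + 1) scale, which understates a change at such low levels (3.59 with a pseudocount of 0.1), is a description without a test, because only a high level in MYC-ON brought the gene over the filter. In SKNAS MYC-OFF all 14 libraries were listed at 0. The 13 SKNAS MYC-ON libraries all had a value above 0, from 0.038 to 0.62 TPM with a median of 0.24 TPM. No fold is given against a group at 0. Even in MYC-ON, cyclin D2 was a minor D cyclin transcript in both lines.

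CCND3 (ENSG00000112576, chromosome 6, 41934934 to 42050357, minus strand) encodes cyclin D3. Its values in SHEP were 47.0, 71.1 and 94.8 TPM in MYC-OFF and 27.4, 51.1 and 66.8 TPM in MYC-ON, lower in 28 of 28 pairs. The change was -0.53 ± 0.065 (adjusted p = 7.1e-10). In SKNAS the values were 35.1, 90.7 and 101 TPM in MYC-OFF and 42.2, 55.0 and 71.7 TPM in MYC-ON, and no MYC-ON library lay below the lowest MYC-OFF one. Its change of -0.52 ± 0.15 (adjusted p = 0.010) shrank to -0.15 (adjusted p = 0.26) after rescaling and to -0.26 (adjusted p = 0.072) with the library median as a covariate. Among the 10 SKNAS MYC-OFF libraries with a median of at least 3.8 it ranged from 79.8 to 101 TPM, and in the 3 MYC-ON libraries of that kind from 55.0 to 69.5 TPM.

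CCNE1 (ENSG00000105173, chromosome 19, 29811991 to 29824312, plus strand) encodes cyclin E1, the partner of CDK2 at the end of G1. In SHEP its lowest, median and highest values were 11.8, 15.6 and 18.5 TPM in MYC-OFF and 22.4, 27.5 and 36.4 TPM in MYC-ON. The groups did not overlap in any of the 56 libraries. The mean was 1.81 times higher, and the change was 0.82 ± 0.043 (adjusted p = 8.8e-22). SKNAS had 10.9, 20.3 and 25.3 TPM in MYC-OFF and 18.5, 30.8 and 41.1 TPM in MYC-ON, higher in 12 of 13 pairs, and 10 of the 13 MYC-ON libraries lay above the highest MYC-OFF one. The change was 0.63 ± 0.14 (adjusted p = 0.0016), and 0.99 after rescaling. From CT52 on, where only 8.63% of all genes tested were called, the change was 0.92 and not called (adjusted p = 0.054). A difference of the effect between lines did not pass the test (-0.18 ± 0.10, adjusted p = 0.13).

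CCNE2 (ENSG00000175305, chromosome 8, 94879770 to 94896678, minus strand), which encodes cyclin E2, was less abundant. Its SHEP values were 2.45, 4.98 and 7.71 TPM in MYC-OFF and 1.78, 5.47 and 9.23 TPM in MYC-ON, and the change of 0.053 ± 0.10 did not pass the test (adjusted p = 0.65). Over CT24 to CT48 alone it did, at 0.38 (adjusted p = 0.0049). In SKNAS the values ran from 0 to 11.7 TPM in MYC-OFF and from 0.24 to 14.2 TPM in MYC-ON, and the change of -0.48 ± 0.36 did not pass either (adjusted p = 0.28). With the library median as a covariate the sign turned, to 0.43 (adjusted p = 0.0076). Over CT24 to CT48 alone the change was -1.16 (adjusted p = 0.017), where 51% of all genes tested were called lower, at a median change of -0.47. The 4 SKNAS MYC-OFF libraries with a median under 3.8, all from CT52 on, held 0 to 3.72 TPM, and the other 10 held 6.20 to 11.7 TPM.

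CDK4 (ENSG00000135446, chromosome 12, 57747727 to 57756013, minus strand) was the most abundant kinase of the pair in every group. Its lowest, median and highest values in SHEP were 207, 239 and 266 TPM in MYC-OFF and 168, 349 and 446 TPM in MYC-ON. MYC-ON was higher in 25 of 28 pairs, and 23 of its 28 libraries lay above the highest MYC-OFF value. The change was 0.49 ± 0.064 (adjusted p = 3.5e-09), and it was 0.74 over CT24 to CT48 and 0.23 from CT52 on. In SKNAS the values were 152, 416 and 530 TPM in MYC-OFF and 170, 418 and 567 TPM in MYC-ON, and the change of 0.017 ± 0.15 did not pass the test (adjusted p = 0.93). After rescaling it was 0.39 (adjusted p = 0.0037) and with the library median as a covariate 0.29 (adjusted p = 0.038). The effect was smaller in SKNAS than in SHEP by 0.47 ± 0.13 (-0.47 as SKNAS minus SHEP, adjusted p = 0.0025), a call that was lost at -0.19 (adjusted p = 0.14) after rescaling, at -0.23 (adjusted p = 0.11) with the covariate and at -0.41 (adjusted p = 0.060) in libraries with a median of at least 3.8.

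The E-box CACGTG, which is its own reverse complement, is the sequence bound by MYC and MAX dimers, and E2F factors bind sites such as TTTCCCGC or TTTGGCGC. RefSeq (GRCh38.p14) windows from 250 bases before to 50 after a start site were at hand for 7 of the 10 genes, 12 windows in all, and those of CCND1, CCND2 and CCNE2 were not. Over all 35116 windows, 7.26% held a CACGTG and 2.27% an E2F-type match on either strand. CDK4 had 3 E-boxes, with their first base 216, 196 and 101 bases before the start (positions -216, -196 and -101). CDKN2C had 1 in each of 2 of its 3 windows (-220 and -69) and CDK6 had 1 in 1 of 2 windows, at 31 bases after the start. The windows of CCND3, CCNE1, CDKN1A and CDKN1B held none, and no window of these genes held an E2F-type match, so that no E-box overlapped one. The 250 bases before the start are printed 5′ to 3′, with E-boxes in capitals, for CDK4, which had the most E-boxes and rose in SHEP, for CCNE1, which rose in both lines without one, and for CDKN1B, which fell in both lines without one. The stretches are chr12:57752311-57752560 (minus strand), chr19:29811741-29811990 (plus strand) and chr12:12717118-12717367 (plus strand).
CDK4: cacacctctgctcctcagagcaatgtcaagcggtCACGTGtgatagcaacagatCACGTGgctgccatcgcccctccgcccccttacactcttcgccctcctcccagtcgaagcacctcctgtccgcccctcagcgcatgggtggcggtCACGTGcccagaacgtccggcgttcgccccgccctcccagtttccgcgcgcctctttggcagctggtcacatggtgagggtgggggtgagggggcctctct
CCNE1: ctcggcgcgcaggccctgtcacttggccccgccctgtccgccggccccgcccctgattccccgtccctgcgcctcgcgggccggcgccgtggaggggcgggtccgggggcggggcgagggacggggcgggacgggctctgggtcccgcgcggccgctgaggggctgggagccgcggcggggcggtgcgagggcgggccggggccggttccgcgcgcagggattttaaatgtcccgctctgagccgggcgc
CDKN1B: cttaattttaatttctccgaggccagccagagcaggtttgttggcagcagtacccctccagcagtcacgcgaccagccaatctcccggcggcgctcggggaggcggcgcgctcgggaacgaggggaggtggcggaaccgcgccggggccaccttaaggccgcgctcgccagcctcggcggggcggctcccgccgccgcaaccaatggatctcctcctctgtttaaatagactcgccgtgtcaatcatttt
These matches describe the letters of the windows, and binding was not measured here.

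CDK6 (ENSG00000105810, chromosome 7, 92604921 to 92836573, minus strand), the second D cyclin kinase, had lowest, median and highest values of 35.3, 49.8 and 68.2 TPM in SHEP MYC-OFF and of 35.2, 51.0 and 70.6 TPM in SHEP MYC-ON. MYC-ON was higher in 13 of 28 pairs, and the change was -0.017 ± 0.075 (adjusted p = 0.85). The series stood apart: in MYC-OFF, series 1 held 35.3 to 48.6 TPM and series 2 held 51.0 to 68.2 TPM, without overlap. In SKNAS CDK6 ranged from 7.67 to 45.6 TPM in MYC-OFF and from 7.76 to 61.1 TPM in MYC-ON, with a change of -0.34 ± 0.29 (adjusted p = 0.35). The sign turned with the library median as a covariate, to 0.39 (adjusted p = 0.0086). Over CT24 to CT48 alone the change was -0.82 (adjusted p = 0.043), where 51% of all genes tested were called lower, at a median change of -0.47. In SHEP the covariate turned the sign of CDK6 as well, to 0.21 (adjusted p = 0.013).

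CDKN1A (ENSG00000124762, chromosome 6, 36676460 to 36687337, plus strand) encodes p21, a well known target of p53. In SHEP its lowest, median and highest values were 518, 676 and 804 TPM in MYC-OFF and 526, 682 and 966 TPM in MYC-ON, higher in 11 of 28 pairs, and the change of 0.047 ± 0.059 did not pass the test (adjusted p = 0.47). The series went opposite ways, with 0.18 in series 1 alone, which was called (adjusted p = 0.046), and -0.085 in series 2 alone (adjusted p = 0.19). In SKNAS the values were 5.46, 26.97 and 53.0 TPM in MYC-OFF and 2.01, 5.37 and 7.43 TPM in MYC-ON. MYC-ON was lower in 13 of 13 pairs, and the mean in MYC-OFF was 5.54 times that in MYC-ON. The change was -2.16 ± 0.20 (adjusted p = 6.8e-07), and it lay between -2.66 and -1.58 under the 21 alternatives run. The effect in SKNAS minus that in SHEP was -2.21 ± 0.15 (adjusted p = 6.3e-19). Within the libraries with a median of at least 3.8, the 10 SKNAS MYC-OFF values ran from 22.8 to 53.0 TPM. The 3 MYC-ON values of that kind ran from 5.86 to 7.43 TPM, with no overlap. In libraries under 3.8 the ranges overlapped, with 5.46 to 22.6 TPM in MYC-OFF and 2.01 to 6.75 TPM in MYC-ON.

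CDKN1B (ENSG00000111276, chromosome 12, 12685498 to 12722369, plus strand) encodes p27. Its SHEP values were 14.8, 16.7 and 20.9 TPM in MYC-OFF and 7.55, 10.0 and 12.5 TPM in MYC-ON, and no library of one group reached the range of the other. The change was -0.70 ± 0.029 (adjusted p = 2.5e-25). SKNAS had 20.4, 55.5 and 59.5 TPM in MYC-OFF and 8.37, 21.1 and 33.8 TPM in MYC-ON, lower in 12 of 13 pairs, with a change of -1.16 ± 0.18 (adjusted p = 8.2e-05). From CT52 on, where only 8.63% of all genes tested were called, the change was -1.02 and not called (adjusted p = 0.094). It was -0.80 after rescaling and -0.76 in libraries with a median of at least 3.8, and both passed the test. The larger fall in SKNAS (SKNAS minus SHEP -0.46 ± 0.11, adjusted p = 6.1e-04) was no longer called with the covariate (-0.15, adjusted p = 0.071) or in libraries with a median of at least 3.8 (-0.068, adjusted p = 0.62).

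CDKN2C (ENSG00000123080, chromosome 1, 50960745 to 50974634, plus strand) encodes p18, the INK4 inhibitor of this set. In SHEP its lowest, median and highest values were 14.2, 19.2 and 26.9 TPM in MYC-OFF and 3.15, 9.74 and 14.4 TPM in MYC-ON. MYC-ON was lower in 28 of 28 pairs, and 27 of its 28 libraries lay below the lowest MYC-OFF value. The change was -1.05 ± 0.086 (adjusted p = 4.8e-15). SKNAS had 61.4, 71.5 and 85.9 TPM in MYC-OFF and 30.3, 34.4 and 43.8 TPM in MYC-ON, and the groups did not overlap. The change was -0.996 ± 0.10 (adjusted p = 1.5e-06), and -0.63 after rescaling (adjusted p = 0.0053). The difference between lines was 0.054 ± 0.14 (adjusted p = 0.77). In libraries split by their median, the MYC-OFF range was 61.4 to 79.7 TPM in libraries with a median of at least 3.8 and 71.4 to 85.9 TPM in the other 4.

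A second comparison set SKNAS against SHEP without active N-MYC-ER, and line and experiment cannot be told apart in it. Of 9 genes tested, CCNE1, CDK4, CDKN1B and CDKN2C were higher in SKNAS and CDK6 and CDKN1A were lower, and 78.5% of all 14926 genes tested were called. The largest difference was that of CDKN1A, at -4.76 ± 0.14 (adjusted p = 3.6e-24), with a mean of 684 TPM in SHEP and 27.1 TPM in SKNAS. The other inhibitors went the opposite way, CDKN2C by 1.84 ± 0.060 (adjusted p = 3.5e-23) and CDKN1B by 1.39 ± 0.11 (adjusted p = 2.2e-13). CDK6 was lower by 1.07 on the log2 scale (-1.07 ± 0.17, adjusted p = 1.5e-06), CDK4 was higher by 0.63 ± 0.10 (adjusted p = 1.4e-06) and CCNE1 by 0.28 ± 0.081 (adjusted p = 0.0026). Restricted to libraries with a median of at least 3.8, CCND1 (0.47), CCND3 (0.41) and CCNE2 (0.74) were also called higher in SKNAS, and after rescaling so were CCND1 (0.37) and CCND3 (0.33).

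Shares within a library do not depend on how the libraries were scaled, and they are given as a description. Cyclin D1 made up a median of 62.2% of the summed D cyclin transcripts in SHEP without active N-MYC-ER and 63.7% with it, and in SKNAS its medians were 63.3% and 80.0%. The SKNAS share was higher in MYC-ON in 13 of 13 pairs, and 12 of the 13 MYC-ON libraries lay above the highest MYC-OFF share of 70.9%. The share of CCND2 was at most 3.81% in any library. CCNE1 had a median share of 74.4% of the E cyclin sum in SHEP MYC-OFF and of 83.4% in MYC-ON, higher in 25 of 28 pairs. Its medians in SKNAS were 72.3% and 89.2%, but the share moved with the library median: the 4 MYC-OFF libraries under 3.8 held at least 82.9% and the others 63.2% to 75.6%, while the 3 MYC-ON libraries from 3.8 held 74.1% to 79.9%. CDK4 accounted for a median of 82.1% of CDK4 and CDK6 in SHEP MYC-OFF and of 87.5% in MYC-ON. In SKNAS the medians were 93.4% and 95.8%, but in libraries from 3.8 the CDK4 share was 90.4% to 95.4% in MYC-OFF and 87.2% to 92.7% in MYC-ON. The cyclin D1 share did not overlap between the conditions within either band, with 56.3% to 70.0% and 70.6% to 83.5% under 3.8, and 55.9% to 70.9% and 80.6% to 84.6% from 3.8.

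The inhibitors differed by line. In SHEP nearly all of the summed inhibitor transcripts were CDKN1A, with a median of 94.8% in MYC-OFF and 97.2% in MYC-ON. In SKNAS MYC-OFF, CDKN2C was the largest at a median of 46.4%, followed by CDKN1B at 34.3% and CDKN1A at 17.5%. In SKNAS MYC-ON the median share of CDKN1A was 8.004%, lower in 12 of 13 pairs. From a library median of 3.8 the CDKN1A shares of the conditions did not overlap, with 14.3% to 29.1% and 8.26% to 10.4%, and under it they did, with 4.91% to 14.5% and 3.42% to 9.22%. In SHEP the 3 inhibitors summed to 721 ± 68.6 TPM (SD, n = 28) without active N-MYC-ER, and with it the sum was 734 ± 133 TPM (SD, n = 28). The SKNAS sum was 148 ± 23.2 TPM (SD, n = 14) in MYC-OFF, against 62.3 ± 11.3 TPM (SD, n = 13) in MYC-ON, where the highest library, at 73.9 TPM, lay below the lowest MYC-OFF library, at 105 TPM. CDKN2A, an INK4 inhibitor outside this set and named here after its values were seen, was more abundant in SKNAS than these 3 together, with a mean of 398 ± 49.0 TPM (SD, n = 14) in MYC-OFF and 460 ± 61.2 TPM (SD, n = 13) in MYC-ON. It was higher in MYC-ON in 11 of 13 pairs, but its change of 0.20 ± 0.11 did not pass the test (adjusted p = 0.16), and in SHEP it was listed at 0 in 24 of the 28 libraries without and in 25 of the 28 with 4OHT.

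**Figure D3:**
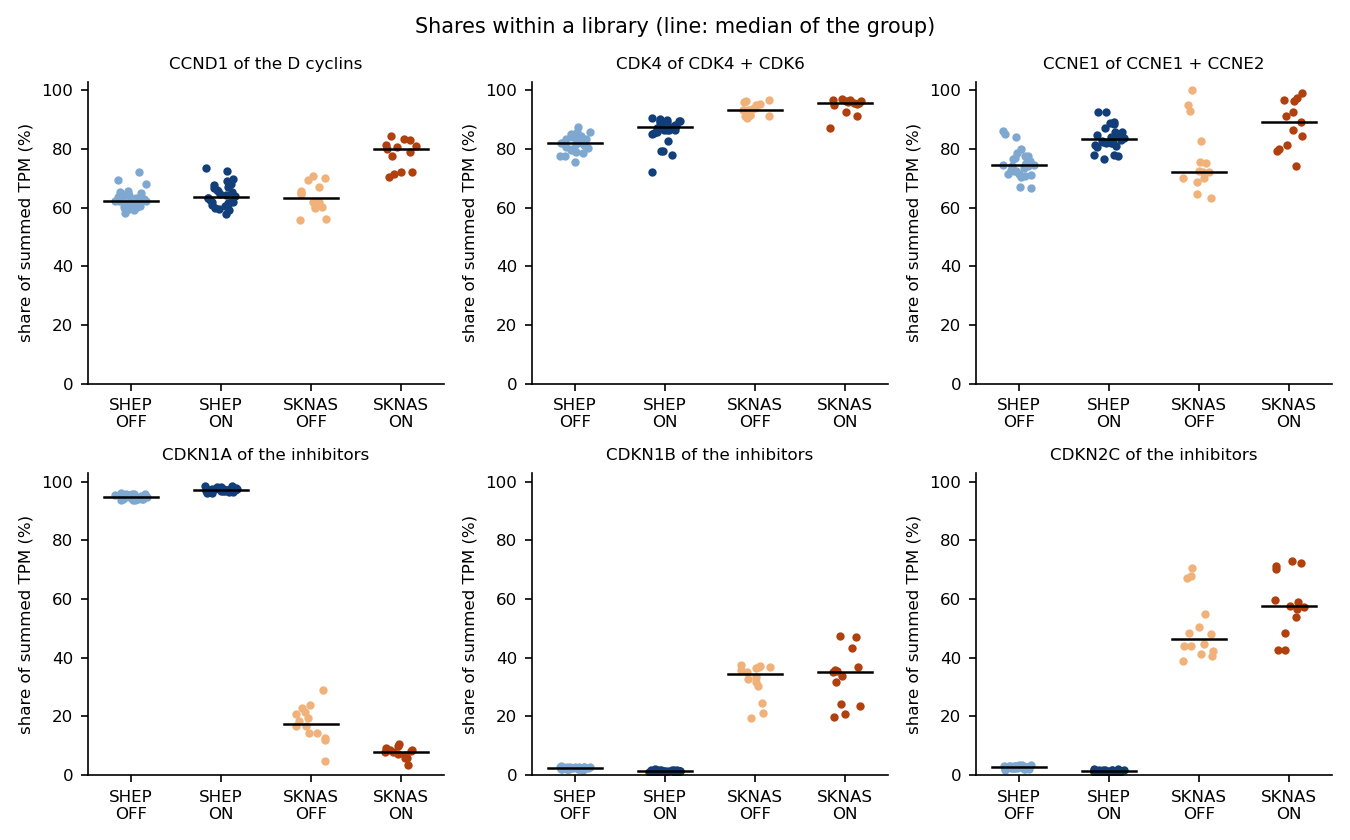
Share of a gene in the summed TPM of its class (y axis, percent) for each library in the 4 groups (x axis), with the median of the group as a line. The cyclin D1 share is shifted upwards in SKNAS MYC-ON alone, and CDKN1A fills at least 93.7% of the inhibitor sum in every SHEP library but at most 29.1% in SKNAS.

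**Figure D4:**
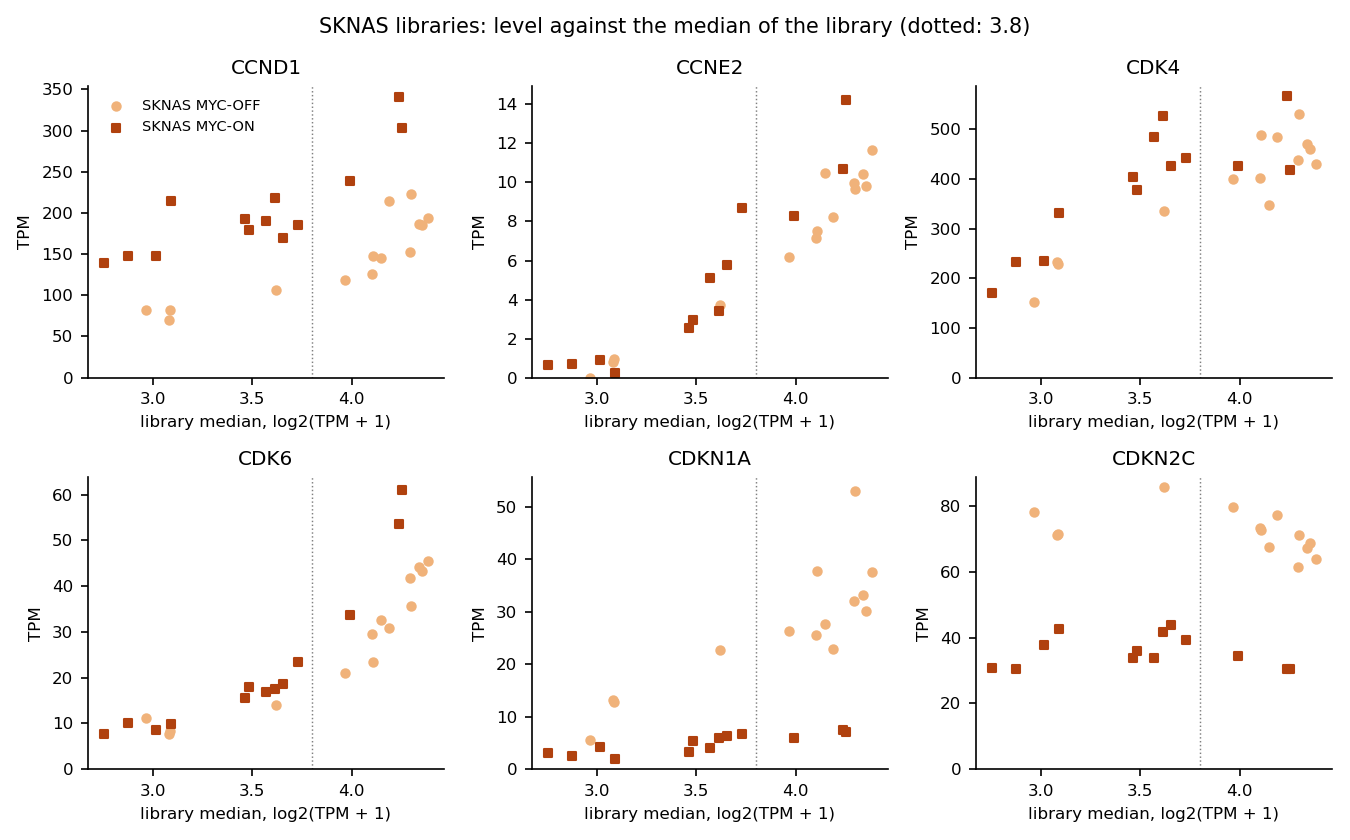
TPM (y axis) of 6 genes against the median over genes of log2(TPM + 1) (x axis) in the 27 SKNAS libraries, circles for MYC-OFF and squares for MYC-ON, with a dotted line at 3.8. CCND1 and CDK6 are split at 3.8 in both conditions and CCNE2, CDK4 and CDKN1A in MYC-OFF only, whereas CDKN2C splits by condition at every median.

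The plot of SKNAS levels against the library median shows which results move with it. CDK6 was at 7.67 to 14.02 TPM in the 4 MYC-OFF libraries under 3.8 and at 21.0 to 45.6 TPM in the other 10, and in MYC-ON at 7.76 to 23.3 TPM in 10 libraries and at 33.6 to 61.1 TPM in 3. CCND1 in MYC-OFF was at 70.1 to 106 TPM under 3.8 and at 118 to 223 TPM from 3.8, and in MYC-ON at 140 to 219 TPM and 238 to 341 TPM, so that MYC-ON lay above MYC-OFF within each band. CDK4 ranged from 152 to 336 TPM in MYC-OFF libraries under 3.8 and from 348 to 530 TPM in the others, but in MYC-ON the bands overlapped, with 170 to 527 TPM under 3.8 and 418 to 567 TPM from 3.8. CDKN1A was split in MYC-OFF, at 5.46 to 22.6 TPM and 22.8 to 53.0 TPM, and so were CCND3 and CCNE1, which are not plotted. CDKN1B, also not plotted, was split in both conditions. It held 20.4 to 47.5 TPM and 51.5 to 59.5 TPM in MYC-OFF, and 8.37 to 27.1 TPM and 30.7 to 33.8 TPM in MYC-ON. From 3.8, where MYC-ON had 3 libraries, the conditions did not overlap for CCND1, CCND3, CCNE1, CDKN1A and CDKN1B. They did overlap there for CCNE2, CDK4 and CDK6. Under 3.8, the conditions were apart for CCND1 and CCNE1 and overlapped for the others. How much of the size of a SKNAS change belongs to the library median and how much to the condition cannot be told apart for these genes. Most MYC-ON libraries were in the lower band.

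The next comparison concerned the time course, as a linear trend expressed as the change over 48 h. CCND2 is again left out of the counts. In SHEP MYC-OFF none of the other 9 genes had a called trend by limma, and 1 of them, CCND3, had an unadjusted p under 0.05 (0.26 ± 0.11, adjusted p = 0.14), while 11.6% of all genes tested were called and 24.2% had such a p. In SHEP MYC-ON 7 of 9 were called, against 59.6% of all genes: CDKN1A rose, and CCND1, CCND3, CCNE1, CCNE2, CDK4 and CDKN2C fell. CDK6 (-0.16 ± 0.081, adjusted p = 0.085) and CDKN1B (0.0021 ± 0.075, adjusted p = 0.98) were not called. For CDK6 the trend was -0.41 and called in series 1 alone (adjusted p = 6.8e-04), and 0.088 in series 2 alone (adjusted p = 0.57). The trend in MYC-ON minus that in MYC-OFF was called for the same 7 genes, where 43.4% of all genes tested were called.

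**Figure D5:**
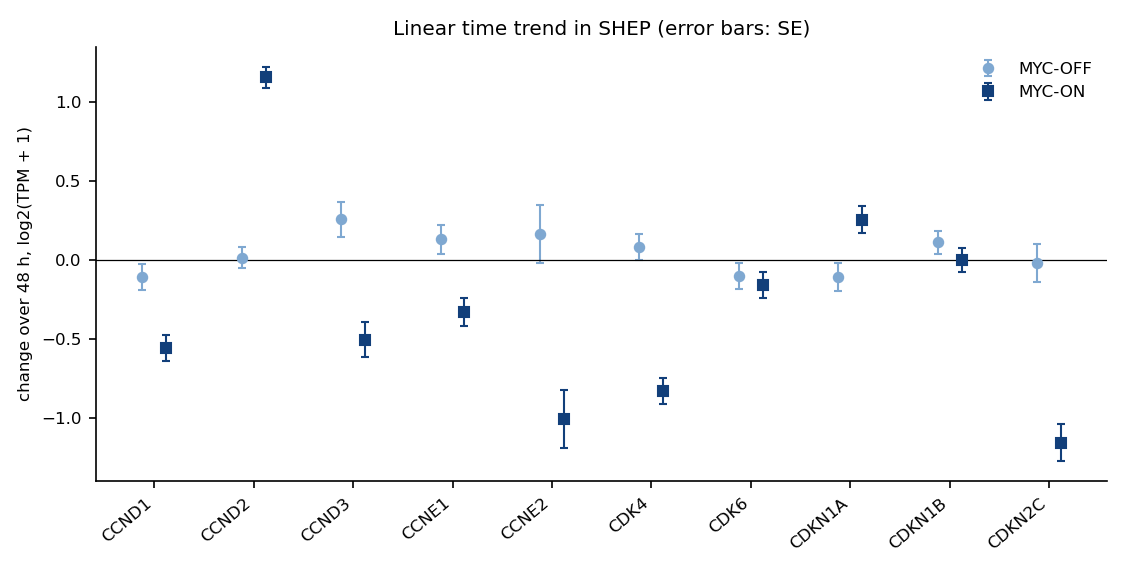
Linear trend over 48 h (y axis, difference in log2(TPM + 1), with its SE as error bars) of each gene in SHEP MYC-OFF and MYC-ON. The MYC-OFF trends lie between -0.11 and 0.26, whereas in MYC-ON they reach from -1.15 for CDKN2C to 1.15 for CCND2.

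CCND2 was low at first and higher later. Over CT24 to CT32 its 6 SHEP MYC-ON libraries held 0.79 to 1.17 TPM, and over the last 3 CTs they held 2.92 to 3.96 TPM, without overlap in either series. The fitted trend was 1.15 in MYC-ON, as a description without a test. No difference from MYC-OFF is given, because at 0.020 to 0.13 TPM a trend in MYC-OFF could hardly show on the log2(TPM + 1) scale. In SKNAS MYC-ON, CCND2 was at 0.038 to 0.12 TPM in the first 3 libraries and at 0.25 to 0.34 TPM in the last 3, which is given without a test.

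CDK4 began high and fell. It was at 383 to 446 TPM over CT24 to CT32 in SHEP MYC-ON and at 168 to 302 TPM over the last 3 CTs, where MYC-OFF held 228 to 266 TPM. The early ranges of the conditions did not overlap, since MYC-OFF held 209 to 264 TPM at those times, and the late ranges did. The trend was -0.83 ± 0.083 (adjusted p = 1.6e-12), with a difference from MYC-OFF of -0.91 ± 0.12 (adjusted p = 8.4e-09). At CT24 to CT32 series 1 was at 439 to 446 TPM and series 2 at 383 to 422 TPM.

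Both E cyclins declined in SHEP MYC-ON. CCNE1 went from 23.5 to 36.4 TPM at CT24 to CT32 to 22.4 to 25.3 TPM at the end, a trend of -0.33 ± 0.091 (adjusted p = 0.0016), and stayed above the MYC-OFF libraries of the same times, which ended at 15.2 to 17.1 TPM. The trend of CCNE1 lost its call without replicate 1 (-0.23, adjusted p = 0.165). CCNE2 went from 5.34 to 9.23 TPM to 1.78 to 4.24 TPM, a trend of -1.01 ± 0.18 (adjusted p = 5.1e-06). It ended below MYC-OFF, which held 4.86 to 7.71 TPM over the last 3 CTs. The difference of trend was -1.17 ± 0.26 for CCNE2 (adjusted p = 2.2e-04) and -0.46 ± 0.13 for CCNE1 (adjusted p = 0.0028).

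The other D cyclins also declined. CCND1 was at 99.3 to 128 TPM at CT24 to CT32 in SHEP MYC-ON, where MYC-OFF held an overlapping 108 to 177 TPM. Over the last 3 CTs it was at 67.997 to 87.99 TPM, below the 103.2 to 124 TPM of MYC-OFF. Its trend was -0.56 ± 0.083 (adjusted p = 8.6e-08) and the difference -0.45 ± 0.12 (adjusted p = 0.0015), which without replicate 2 became -0.44 (adjusted p = 0.065). CCND3 fell by 0.50 on the log2 scale (-0.50 ± 0.11, adjusted p = 1.3e-04), and the trend was -0.83 without replicate 1 but -0.17 and not called without replicate 2 (adjusted p = 0.33). Over the last 3 CTs CCND3 was at 46.0 to 52.5 TPM in series 1 and at 27.4 to 37.0 TPM in series 2.

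CDKN2C fell from 10.5 to 14.4 TPM to 3.15 to 6.07 TPM in SHEP MYC-ON, a trend of -1.15 ± 0.12 (adjusted p = 2.9e-12), while MYC-OFF went from 17.6 to 26.9 TPM to 19.2 to 23.8 TPM. Its difference of trend was -1.14 ± 0.17 (adjusted p = 1.6e-07). CDKN1B kept its lower level without a called trend, at 8.87 to 12.5 TPM at the start and 9.76 to 11.3 TPM at the end. For CDKN1A the series differed. In series 1 it went from 675 to 823 TPM to 944 to 966 TPM, whereas series 2 was at 564 to 672 TPM and then at 526 to 873 TPM, its highest value being that of CT76. The pooled trend of 0.26 ± 0.087 (adjusted p = 0.0099) was 0.071 (adjusted p = 0.65) without replicate 1 and 0.14 (adjusted p = 0.19) without CT76. The difference of trend of CDKN1A, 0.36 ± 0.12 (adjusted p = 0.014), was lost with either as well, at 0.10 (adjusted p = 0.68) and 0.22 (adjusted p = 0.18).

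In SKNAS no gene of the set had a called trend in MYC-OFF or in MYC-ON by limma, where 0.151% and 0.166% of all genes tested were called. In MYC-OFF 6 of 9 had an unadjusted p under 0.05, as did 35.5% of all genes, and in MYC-ON 2 of 9, as did 7.28% of all genes. The lowest adjusted p was that of CCND1 in MYC-OFF, with -1.17 ± 0.28 (adjusted p = 0.076), and with the library median as a covariate it was -0.64 and called (adjusted p = 0.025). CCNE2 in MYC-ON turned from -0.33 to 0.87 with that covariate (adjusted p = 0.035).

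A 24 h rhythm was tested in SHEP as a cosine and sine pair around a linear trend per condition, shared by both series, with a mean per condition and series. By this limma F test no gene of the set was called in MYC-OFF or MYC-ON, and among all genes 0.0487% and 0.0418% were called, which is 7 and 6 genes. Leaving out CCND2, 1 of 9 had an unadjusted p under 0.05 in MYC-OFF (CCND3), against 7.28% of all genes, and 4 of 9 in MYC-ON (CCND1, CCND3, CCNE1 and CDK4), against 11.9%. The fitted amplitude of CCND3 was 0.14 in MYC-OFF (adjusted p = 0.60) and 0.16 in MYC-ON (adjusted p = 0.25), the largest of the set in each condition on the log2(TPM + 1) scale.

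Neighbouring genes of the pathway were counted by lists. Over all genes tested, 33% were called higher and 38.9% lower with MYC-ON in SHEP, and 13.7% higher and 34.4% lower in SKNAS, where rescaling turned the shares to 27.6% and 23.9%. Of 5 other CDK inhibitors, CDKN2B (p15) fell in SKNAS, by -1.75 (adjusted p = 1.0e-05). CDKN1C (p57) had a mean of 4.78 TPM in SKNAS MYC-OFF and 0.84 TPM in MYC-ON, and since it passed the filter through MYC-OFF its change of -1.65 is given without a test. Both were under the filter in SHEP. CDKN2D (p19) fell in both lines, at -0.70 (adjusted p = 8.5e-12) in SHEP and -0.79 (adjusted p = 0.0032) in SKNAS. Of the list, 1 rose and 1 fell among 2 tested in SHEP. In SKNAS, leaving out CDKN1C, 0 rose, CDKN2B and CDKN2D fell, and the others did not pass the test. For other G1/S cyclin-CDK machinery the counts were 3 higher and 1 lower of 6 in SHEP and 1 higher and 0 lower of 6 in SKNAS, with a median change of 0.11 and 0.13, and after rescaling 5 of 6 were higher in SKNAS.

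The RB and E2F family had 6 higher and 6 lower of 13 in SHEP, and 1 higher and 3 lower of 12 tested in SKNAS, or 3 and 3 after rescaling. E2F5, a repressive E2F, rose by 1.36 in SHEP (adjusted p = 3.2e-27) and by 1.05 in SKNAS (adjusted p = 0.0028). RB1 itself fell, at -0.65 (adjusted p = 5.3e-16) and -1.26 (adjusted p = 0.0045). E2F1 fell in SHEP at -0.72 (adjusted p = 8.4e-08), and RBL2, an RB relative, fell in SKNAS at -0.93 (adjusted p = 0.037). Among 13 genes for the degradation of G1 cyclins and inhibitors, 7 rose and 2 fell in SHEP. In SKNAS, without rescaling, 4 rose and 3 fell. CKS2, a CDK-binding protein, rose by 0.88 (adjusted p = 7.7e-14) and 0.82 (adjusted p = 5.2e-04). SKP2, the F-box protein that marks p27 for degradation, was at 0.22 in SHEP (adjusted p = 0.018) and at -0.82 in SKNAS (adjusted p = 0.0016). AMBRA1, an adaptor for the degradation of D cyclins, was at -0.31 in SHEP (adjusted p = 7.7e-05) and at -0.82 in SKNAS (adjusted p = 0.049).

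S phase and mitotic genes stand for cells in cycle. In SHEP 2 of 16 S phase genes rose and 4 fell with MYC-ON, MCM5 by -0.74 (adjusted p = 5.8e-12), and in SKNAS 1 rose and 3 fell, or 7 and 1 after rescaling. Of 12 mitotic genes, 5 rose and 3 fell in SHEP and 1 rose and 3 fell in SKNAS, MKI67 by -0.84 (adjusted p = 0.038) and KIF11 by -0.68 (adjusted p = 0.015). After rescaling, 5 mitotic genes were called higher and 2 lower in SKNAS, so that the direction of both lists turned with the scaling there. Over the SHEP MYC-ON time course, 16 of 16 S phase and 11 of 12 mitotic genes fell, where 38.6% of all genes were called lower (30.3% after rescaling), with a median change over 48 h of -1.07 and -0.70, against a median of -0.11 over all genes tested, which rescaling moved to -0.00535. In SHEP MYC-OFF the medians were 0.24 and 0.16, with 4 and 0 genes called higher and none called lower. The falls of CCNE2, CDK4 and CDKN2C in SHEP MYC-ON stood beside these lists, and the part of the share of cycling cells was not tested.

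The genes most like each member within SHEP were found by Pearson r over 56 libraries after the mean of each condition and series was removed. They are given as a description of libraries that share experiments. Time trends were not removed, and 59.6% of all genes tested had a called trend in SHEP MYC-ON. The part of shared trends in these r values was not tested. CDK4 was closest to WDR34 (r = 0.94), HNRNPA0 (0.93) and URM1 (0.93). CDKN2C was closest to CDC20 (0.91), H2AZ1 (0.91) and ALYREF (0.90), and CCNE2 to ERCC6L (0.82), RFC3 (0.82) and XRCC2 (0.82). CDK6 was closest to ARHGAP5 (0.88), DDX21 (0.85) and AKAP11 (0.84), and CCND2 to YBX3 (0.88), GAS5 (0.88) and ZNF277 (0.88). CCND1 was closest to STC1 (0.84), CBFB (0.82) and CEMIP (0.82), and CCND3 to AGFG2 (0.85), FSCN1 (0.84) and SLC39A1 (0.80). For CDKN1A they were WBP2 (0.78), BBC3 (0.77) and SREBF2 (0.76), and for CCNE1 they were ZNF114 (0.75), KCTD12 (0.70) and SLBP (0.70). CDKN1B had the weakest neighbours, TSC22D1 (0.53), TCF12 (0.53) and MFSD14A (0.52).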

How the data were processed

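The deposited TPM, 1 value per gene and library, were made by the authors with Salmon 1.3.0, an index of Gencode 35 on GRCh38, and Tximport 1.12.3 for gene totals. TPM sum to the same total in every library and keep no depth, so the depth behind a single value is unknown here and no counting interval can be given. Of entries that shared a symbol (961 repeats), the most abundant one was taken.

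Values were analysed as log2(TPM + 1) with limma 3.58.1 in R 4.3.3, since the count model of the study needs counts. Tests covered genes averaging 1 TPM or more in the libraries compared, and the filter was kept when libraries were left out. Levels were fitted per line with CT as a factor, the difference between lines as an interaction over 83 libraries with line by CT as a factor, trends with a mean per condition and series, and rhythms with cosine and sine terms at 24 h. Alternatives were a pseudocount of 0.1, no filter, median-of-ratios rescaling, the library median as covariate, a replicate block, series means, early and late times alone, libraries with a median of at least 3.8, and left-out series or time points. In libraries with a median of at least 3.8, the SKNAS level fit and the interaction had no CT term. The fit of series means had none either. Leaving out time points, and the interaction in libraries of high median, were added after seeing the data. The fits were tested on simulated data.

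The 10 genes and all lists were chosen with earlier results of these data known. All 10 are named. From the lists, up to 5 called genes with a change of at least 0.66 are named. The 3 genes most like each member are also named. Gene coordinates came from Gencode 44 (GRCh38). A second SKNAS series and another cell line of the study were not analysed here. Some genes that the naming rule or the marker lists would name are not reported here.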

Additional observations from a re-analysis of the deposited data

Results flagged for a closer look

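The effect of MYC-ON differed between the lines, by the test of the difference itself, for 4 genes (SKNAS minus SHEP on the log2 scale): 0.91 for CCND1, -0.47 for CDK4, -2.21 for CDKN1A and -0.46 for CDKN1B. CCND1 fell in SHEP and rose in SKNAS, and CDKN1A fell in SKNAS while its change in SHEP did not pass the test. The differences for CDK4 and CDKN1B were not called when the library median was a covariate.

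The time trend over 48 h differed between MYC-ON and MYC-OFF in SHEP, again by its own test, for 7 genes. MYC-ON minus MYC-OFF was -0.45 for CCND1, -0.76 for CCND3, -0.46 for CCNE1, -1.17 for CCNE2, -0.91 for CDK4, 0.36 for CDKN1A and -1.14 for CDKN2C. The difference for CDKN1A was 0.10 without replicate 1 and 0.22 without CT76, neither of them called, and the calls of CCNE1 without replicate 1 and of CCND1 and CCND3 without replicate 2 were lost too.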

How the results depend on the processing

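In SHEP levels, 236 of 240 values of single genes over all alternatives kept their call, and 9 changed sign (CCNE2, CDK6 and CDKN1A, 1 of them called). Counts for SHEP here include CCND2, which passed the filter only through MYC-ON, so its calls are not tests. With the library median as covariate, 5 genes were called higher in SHEP, as CCNE2 (0.27) and CDK6 (0.21) joined, and 5 in SKNAS, where CCNE2 (0.43) and CDK6 (0.39) turned sign. In SKNAS, with part of the libraries each, 1 gene was called higher over CT24 to CT48, and 0 higher and 2 lower from CT52 on. Of all genes tested, 65.7% were called over CT24 to CT48 and 8.63% from CT52 on. The difference between lines was called positive for 2 genes after rescaling, with the covariate and in libraries of a median of at least 3.8, and negative for 1 gene under the last 2, and CDK6 turned to 0.30 and 0.51 there. SKNAS against SHEP had 7 genes higher in libraries of that median. With the covariate, 1 SKNAS trend was called lower in MYC-OFF (CCND1) and 1 higher in MYC-ON (CCNE2, 0.87). The cause was not tested.

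Leaving out a series or a CT gave 0 to 1 gene with a rising SHEP trend in MYC-OFF (CCND3 without CT32, 0.36). With CCND2 counted, it gave 1 to 2 in MYC-ON and 1 to 2 for their difference. The replicate block in SHEP gave the same counts as without it, 3 higher and 4 lower with CCND2 counted, and 72.2% of all genes called. Leaving out CCND2, the main fit had 2 higher and 4 lower. Deviations of libraries with the same number and CT correlated by 0.037 to 0.30 over genes, positive at 14 of 14 CTs but too weak at some to pair them, and the difference between series 1 and series 2 in MYC-OFF correlated by 0.49 with that in MYC-ON. Pairs in the report match libraries by series number and CT only.

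TPM hold no read depth, so the error of single values at low level, as for CCND2, is unknown. SKNAS had 1 series per condition, and its library medians moved with the condition.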
